A study of Mus musculus with 4 samples.

Results

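The chemokines and chemokine receptors of mouse lung were taken by gene symbol. Rows named Ccl, Ccr, Cxcl, Cxcr, Xcl, Xcr or Ackr with a number, together with Cx3cl1 and Cx3cr1, were kept when at least 1 library held a value above 0. Of 23282 rows in the table, 65 rows with 61 symbols matched, and 59 symbols with a value above 0 formed the set, 38 ligands and 21 receptors. Ccl26 and Ccr8 were at 0 in every library, as were additional rows that repeated the symbols Ccl19, Ccl21a and Ccl21b. Comparisons required a normalized count that averaged 4 or more, and 54 members passed this filter, 35 ligands and 19 receptors. Without its highest library a member could still pass in 50 cases, the exceptions being Ccl20, Ccl22, Ccr3 and Cxcr1.

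Male CDF1 mice were divided into 4 groups of 10, which crossed high-intensity treadmill running (E) with tumor (T), and lung RNA was sequenced from the 3' end in 1 library per group. E(-)T(-) mice neither ran nor received cells, E(+)T(-) mice ran, E(-)T(+) mice received CT26 cells, and E(+)T(+) mice ran and received CT26 cells. Values are listed in this order throughout. CT26 is a murine colorectal carcinoma line that was injected by tail vein, so reads of tumor cells and of lung cells in the T(+) libraries cannot be told apart. The labels give postnatal day 28 for every group, an age at which the study acquired its animals, and the study describes calf muscle from a representative animal per group and a similar analysis of lung, without saying outright whether a lung library held RNA of 1 mouse or of several. With 1 library per group no difference below has a replicate check, and no test between groups was possible.

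Chemokines are small secreted proteins that guide white blood cells along concentration gradients. They are named for the spacing of their first cysteines and act through receptors that couple to G proteins, whereas the atypical receptors of the Ackr group bind and remove ligand without that coupling. In lung, epithelium, endothelium, resident macrophages and recruited leukocytes each make a part of the family, and most receptors mark a class of leukocyte.

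Promoters are shown for 5 ligands because these neighbors on chromosome 5 had unlike values in the 4 libraries, as described below. Cxcl15, Cxcl1 and Cxcl2 lie in a group that spans chr5:90759360-90905938, and Cxcl9 and Cxcl10 in a second group at chr5:92321347-92365485. The 250 bases before the start of each gene were read from RefSeq on GRCm38.p6, the build that mm10 names, and are printed 5' to 3' on the strand of the gene. They cover chr5:90794284-90794533 on the plus strand for Cxcl15, chr5:90890995-90891244 plus for Cxcl1, chr5:90903649-90903898 plus for Cxcl2, chr5:92328080-92328329 minus for Cxcl9 and chr5:92348890-92349139 minus for Cxcl10. Capitals mark matches to the NF-kB consensus or to the letters GAAANNGAA, the core of an interferon response element, each searched on both strands.
Cxcl15: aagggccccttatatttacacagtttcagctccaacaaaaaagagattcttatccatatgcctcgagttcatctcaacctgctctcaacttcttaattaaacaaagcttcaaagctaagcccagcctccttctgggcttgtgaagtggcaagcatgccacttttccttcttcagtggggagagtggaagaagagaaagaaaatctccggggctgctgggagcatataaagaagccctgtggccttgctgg
Cxcl1: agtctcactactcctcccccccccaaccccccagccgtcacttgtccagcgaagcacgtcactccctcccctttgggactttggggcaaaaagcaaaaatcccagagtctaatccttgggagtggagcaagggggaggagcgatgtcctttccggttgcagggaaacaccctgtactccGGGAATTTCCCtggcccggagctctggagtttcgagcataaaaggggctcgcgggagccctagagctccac
Cxcl2: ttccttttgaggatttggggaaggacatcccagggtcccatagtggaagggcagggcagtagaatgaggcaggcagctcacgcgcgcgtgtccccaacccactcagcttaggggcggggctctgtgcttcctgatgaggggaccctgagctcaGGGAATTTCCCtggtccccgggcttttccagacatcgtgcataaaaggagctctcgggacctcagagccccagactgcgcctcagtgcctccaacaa
Cxcl9: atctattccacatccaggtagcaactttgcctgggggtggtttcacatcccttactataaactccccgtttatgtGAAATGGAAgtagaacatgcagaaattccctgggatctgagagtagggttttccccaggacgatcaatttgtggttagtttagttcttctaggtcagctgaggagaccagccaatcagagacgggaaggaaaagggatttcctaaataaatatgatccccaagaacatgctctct
Cxcl10: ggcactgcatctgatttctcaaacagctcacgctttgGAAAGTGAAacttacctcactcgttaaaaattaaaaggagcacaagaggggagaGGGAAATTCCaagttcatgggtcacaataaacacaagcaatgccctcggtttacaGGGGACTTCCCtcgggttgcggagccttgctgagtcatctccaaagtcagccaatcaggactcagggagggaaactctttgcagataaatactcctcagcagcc
The Cxcl1 and Cxcl2 windows held the same NF-kB letters, which began 71 and 97 bases before the start and matched on both strands. The Cxcl9 window held GAAANNGAA from 175 bases before the start. The Cxcl10 window held GAAANNGAA from 213 bases, and NF-kB matches from 159 bases and, overlapping each other, from 104 and 103 bases before the start. Neither set of letters was found in the Cxcl15 window. Across the 32851 promoters of the RefSeq table, 7.25% held the NF-kB consensus and 7.13% held GAAANNGAA in a window of this length. Of the 44 members in that table, 11 held the first and 8 held the second. A member was counted once if any of its promoters matched, whereas the shares count each promoter, so the units differ. A match describes letters and was not tested as a binding site.

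The libraries held between 9354544 and 13367973 assigned reads, so the smallest abundance that 3 reads can show was 0.224 to 0.321 CPM, that is reads scaled to a common total. Hemoglobin genes took 14.3, 14.2, 1.43 and 31.4% of the reads. The scaling factors of the authors' step, as fitted here to the deposited values, ran from 0.768 to 1.172. E(-)T(+) stood apart in its markers of lung tissue. All 10 listed markers of alveolar epithelium and all 8 of endothelium were lower there by 2-fold or more than in E(-)T(-), and 10 of 10 cell division genes were higher. Of all 15164 rows past the filter 25.7% were lower and 20.6% higher. Values below are normalized counts, that is read counts that the authors carried to a common library size. A difference is the difference of the deposited log2(normalized count + 1) values and is called past the limit at 2-fold, a log2 difference of 1. Where an interval is given, it is the exact 95% interval of the log2 ratio of reads, scaled by effective library size, and it covers counting error only, since reads are not independent molecules.

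In tumor-bearing lung, exercise came with a higher level of most of the family. When E(+)T(+) was compared with E(-)T(+), called the exercise effect with tumor, 32 of 54 members were higher past the limit, where 24.3% of all 15164 filtered rows were, and 3 were lower against 17.7% of all rows. With scaling by library totals alone, 26 members were higher against 16.4% of all rows, and 7 were lower against 35.4%. With the members at 0 reads, Ccl20, Ccl22 and Ccr3, set to a bound of 3 reads, 29 were higher. Of the 32, 19 were ligands and 13 were receptors, and Ccl2, Ccl12 and Ccl25 were the 3 lower members. Comparing E(-)T(+) with E(-)T(-), called the tumor effect without exercise, gave largely the other direction, with 27 members lower (25.7% of all rows) and 13 higher (20.6% of all rows). With the same bound 26 were lower. These 2 comparisons share the E(-)T(+) library, so they are not independent of each other.

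The median difference of the 54 members was 1.52 in the exercise effect with tumor and -1.18 in the tumor effect without exercise, beside medians over all rows of 0.01 and -0.03. The medians of receptors were 2.07 and -1.68 and those of ligands 1.12 and -0.61, but ligands went in both directions, and their median absolute difference in the tumor effect without exercise was 2.20 against 1.68 for receptors. With the members at 0 reads set to a bound of 3 reads, the medians over all members were 1.25 and -0.83. Scaling by library totals alone put the median for exercise with tumor at -0.59 over all rows and 0.96 over the members.

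When E(+)T(+) was compared with E(+)T(-), called the tumor effect with exercise, 21 members were higher (14.9% of all rows) and 16 were lower (13.0% of all rows), with a median of 0.16. With scaling by library totals alone the direction of this median turned, to -0.25, with 18 members higher against 9.50% of all rows and 20 lower against 24.2%. This comparison does not use E(-)T(+).

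Without tumor, 13 of 54 members were past the limit with exercise. Between E(+)T(-) and E(-)T(-), called the exercise effect without tumor, 5 members were higher (9.26%, against 5.28% of all rows) and 8 were lower (14.8%, against 4.70% of all rows), and the median was -0.02. The 5 higher were Ackr1, Ccr9, Cxcr2, Ccl17 and Ccr3, and the 8 lower included Cxcl9, Cxcl13, Ccl3, Ccl4, Ccl7, Ccl20 and Cxcr1. Against a bound of 3 reads 7 were lower, since Ccl7, with 6 against 0 reads, was then at 1.85-fold.

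**Figure D1:**
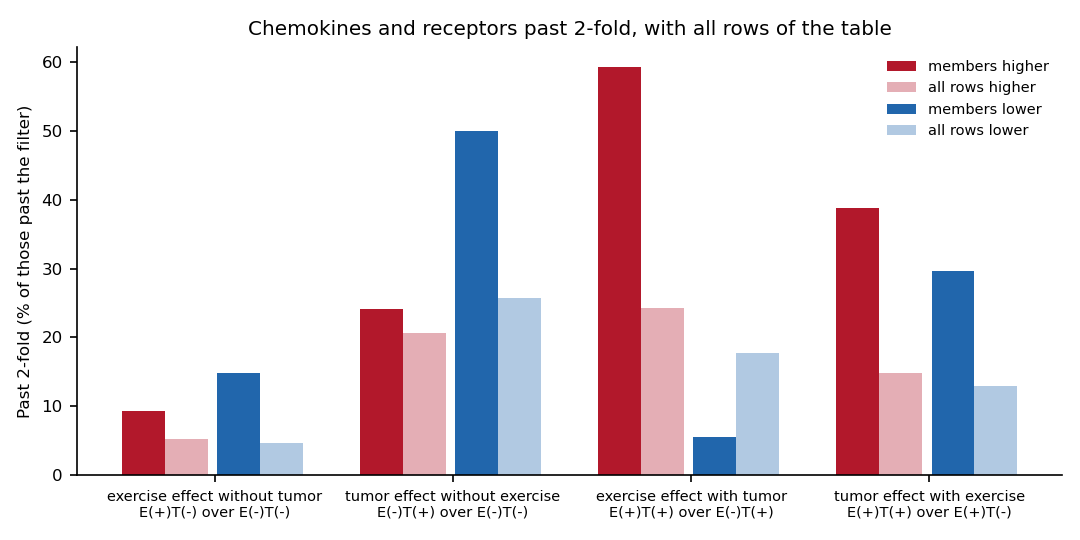
Share of members (dark bars, of 54) and of all filtered rows (light bars, of 15164) that were higher (red) or lower (blue) by 2-fold or more, in percent, for each comparison of 2 libraries. The dark red bar of the exercise effect with tumor, 59.3%, stands beside 24.3% of all rows, and the dark blue bar of the tumor effect without exercise, 50%, beside 25.7%.

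The lowest and highest values of the members were spread unevenly over the tumor-bearing libraries. E(-)T(+) held the lowest value of 30 of 54 members (55.6%) and the highest of 5 (9.26%), against 36.9% and 35.5% of all filtered rows. E(+)T(+) held the highest value of 25 members (46.3%) and the lowest of 2 (3.70%), against 22.3% and 22.6% of all rows. Among the 19 receptors, 13 were lowest in E(-)T(+) and none was lowest in E(+)T(+).

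**Figure D2:**
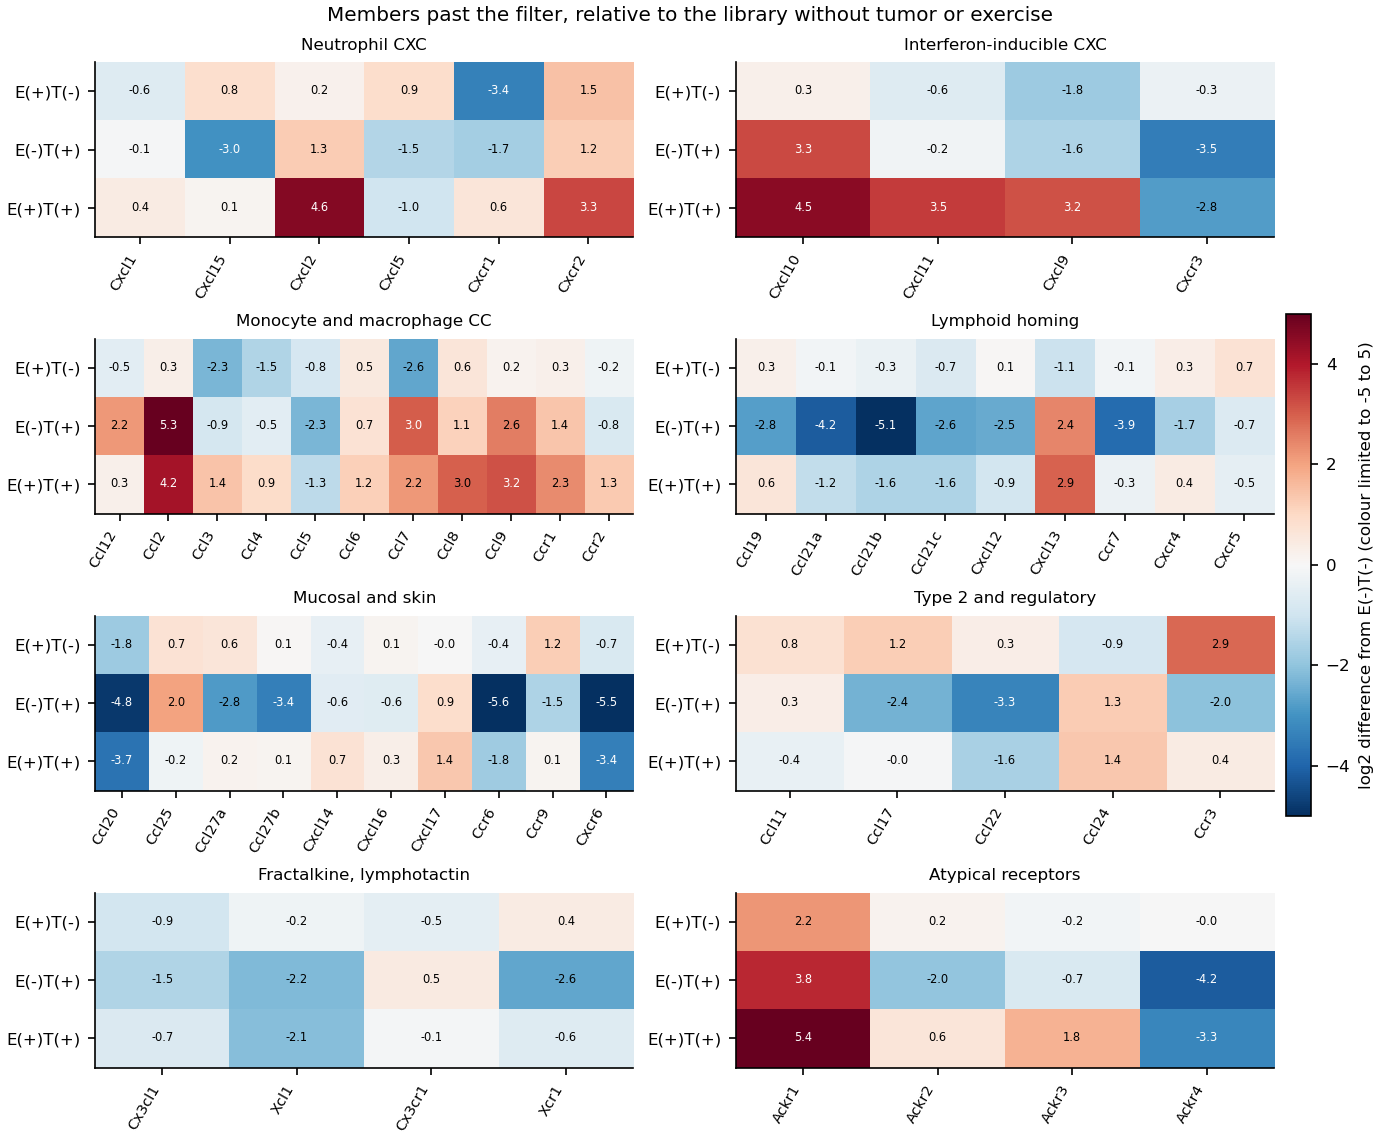
Differences from E(-)T(-) for the filtered members reported here, in log2 units, with a row for each of the other 3 libraries and members grouped by role (ligands first, then receptors). The E(-)T(+) row is blue for most of the lymphoid homing group and for Ccr6 and Cxcr6, and the E(+)T(+) row is red for Cxcl2, Cxcr2, Cxcl9, Cxcl10 and Cxcl11.

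Among the ligands that attract neutrophils, Cxcl2 and Cxcl15 moved and Cxcl1 stayed within the limit in 3 of 4 comparisons. Cxcl15, or lungkine, is a product of lung epithelium and had the most reads of any member, with normalized counts of 19755, 35216, 2428 and 21693. It was thus lowest in E(-)T(+), with a log2 difference of -3.02 in the tumor effect without exercise and 3.16 in the exercise effect with tumor. The exact intervals, -3.09 to -2.96 and 3.10 to 3.22, were narrow at this depth.

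Cxcl2, a ligand of Cxcr2 made by macrophages and neutrophils, stood at 31.3, 36.7, 77.8 and 784. It was high in E(+)T(+), by 3.31 over E(-)T(+) and by 4.38 over E(+)T(-), and its 1.29 in the tumor effect without exercise was also past the limit. Cxcl1, a further Cxcr2 ligand, gave 96.0, 61.5, 92.1 and 129, and its difference of 1.05 in the tumor effect with exercise, the only 1 past the limit, was 0.64 by library totals alone. Cxcl5, which lung epithelium makes, was highest in the tumor-free libraries at 363 and 663, against 131 and 180 with tumor. The neighbors Cxcl15, Cxcl1, Cxcl2 and Cxcl5, whose windows are printed above except for Cxcl5, therefore had 4 different patterns over the same libraries. Cxcl3 did not pass the filter, with 2, 2, 2 and 9 reads.

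Cxcr2, the main receptor by which neutrophils sense these ligands, was highest in E(+)T(+), at 52.6, 147, 125 and 543 in the 4 libraries. It was past the limit in all 4 comparisons, at 1.47 for exercise without tumor, 1.23 for tumor without exercise, 2.11 for exercise with tumor and 1.88 for tumor with exercise. Cxcr1 was scarce, with 11, 0, 2 and 13 reads. Against the 3-read bound it was at least 3.39-fold lower in E(+)T(-) than in E(-)T(-) and at least 5.51-fold higher in E(+)T(+) than in E(+)T(-). From E(-)T(+) to E(+)T(+) the log2 difference was 2.30 with an interval of 0.65 to 5.98, and the tumor effect without exercise, 11 against 2 reads, was -1.68 with an interval that included 0 (-5.31 to 0.10).

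Most neutrophil markers moved with Cxcr2. The 13 listed markers in the table summed to 4428, 12828, 13307 and 219543 normalized counts, and 8, 10, 12 and 13 of them were higher past the limit for exercise without tumor, tumor without exercise, exercise with tumor and tumor with exercise. Of all rows 5.28, 20.6, 24.3 and 14.9% were higher in these comparisons. Ltf was the 1 marker lower past the limit, by -1.40 for exercise with tumor, at 133, 113, 1709 and 648. S100a8 and S100a9 gave 90334 and 88598 of the sum in E(+)T(+). No marker was at 0 in any library, and the part of these markers in the Cxcl2 and Cxcr2 values was not tested. In whole lung, fewer cells of a type and less RNA per cell cannot be told apart.

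The interferon-inducible ligands Cxcl9, Cxcl10 and Cxcl11 were all highest in E(+)T(+), while their receptor was not. Cxcl9 gave 27.9, 7.28, 8.84 and 265, Cxcl10 gave 13.5, 16.5, 140 and 329, and Cxcl11 gave 7.53, 4.53, 6.65 and 96.5. Cxcl10 was already high in E(-)T(+), by 3.29 (interval 2.61 to 4.22), whereas Cxcl9 was low there, by -1.56 with 8 reads, and Cxcl11 differed by -0.16 (-1.99 to 1.44).

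In the exercise effect with tumor the log2 differences were 4.76 for Cxcl9, 1.23 for Cxcl10 and 3.67 for Cxcl11. By library totals alone the value of Cxcl10 was 0.62 and did not pass the limit. Cxcl9 was lower by -1.81 in the exercise effect without tumor, so exercise came with opposite differences in the absence and presence of tumor. Cxcr3, which activated T cells and natural killer cells carry, gave 46.9 and 37.7 in the tumor-free libraries and 3.36 and 5.97 in the tumor-bearing ones, where it had 3 and 5 reads. Its log2 difference was -3.46 (interval -6.15 to -2.21) for tumor without exercise and -2.47 (-4.38 to -1.35) for tumor with exercise, while exercise with tumor gave 0.68 (-1.53 to 3.52).

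T cell and natural killer cell markers were also lower with tumor, but not in the same libraries. The 12 T cell markers summed to 870, 740, 145 and 720, with 11 lower in E(-)T(+) than in E(-)T(-), Cd3g at 0 reads in E(-)T(+), and 3 lower in the tumor effect with exercise. The 10 natural killer cell markers summed to 1548, 1216, 559 and 452, and of the 8 past the filter 6 were lower and 1, Prf1 with 1 against 15 reads, was higher for tumor without exercise, and 7 were lower and 0 higher for tumor with exercise, with Klre1 at 0 reads in the tumor-bearing libraries and Klrb1c at 0 in E(+)T(+). Of all rows 20.6% were higher and 25.7% lower for tumor without exercise, and 14.9% and 13.0% for tumor with exercise. The part of these markers in the Cxcr3 values was not tested.

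Among the ligands for monocytes, Ccl2 and Ccl7 were high in the tumor-bearing libraries. Ccl2, the main ligand of Ccr2, stood at 5.83, 7.28, 263 and 122. It was higher by 5.27 in the tumor effect without exercise and by 3.89 with exercise, and E(+)T(+) was lower than E(-)T(+), by -1.11 (interval -1.46 to -0.78). Ccl7, a neighbor of Ccl2 at chr11:82035571-82305690 that acts on the same receptor, had 6, 0, 44 and 22 reads. It was at least 9.33-fold higher in E(+)T(+) than in E(+)T(-) against the 3-read bound, and 0 against 6 reads in the tumor-free libraries gives a bound of 1.85-fold, within the limit.

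Ccl12, which mice have beside Ccl2, gave 25.4, 17.4, 117 and 30.5 and was lower by -1.91 in the exercise effect with tumor. Ccl8 went the other way within that gene group, at 55.1, 83.6, 123 and 440, and was higher by 1.83 in the exercise effect with tumor. Ccr2, the receptor of inflammatory monocytes, was at 351, 298, 205 and 866. Ligand and receptor thus had opposite differences in the exercise effect with tumor, -1.11 for Ccl2 and 2.07 for Ccr2.

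A second group of CC ligands, Ccl5, Ccl9, Ccl6, Ccl3 and Ccl4, lies at chr11:83525778-83664683. Ccl3 had 25, 4, 10 and 50 reads and Ccl4 had 36, 11, 19 and 50, so that each was lower with exercise in tumor-free lung (-2.27 and -1.52) and higher with exercise in tumor-bearing lung (2.30 and 1.44). By library totals alone Ccl4 was at 0.85 in the exercise effect with tumor. Ccl5, which T cells and natural killer cells release, was highest in E(-)T(-) at 1225 and gave 682, 249 and 490 in the other libraries. Its -2.30 in the tumor effect without exercise was past the limit, while 0.97 in the exercise effect with tumor was not.

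Ccl6, a mouse ligand of myeloid cells, gave 2968, 4178, 4894 and 6831 and stayed within the limit in every comparison. Ccl9, its neighbor, gave 110, 125, 648 and 999 and was higher with tumor by 2.55 without and 2.99 with exercise. The receptor Ccr1 followed at 43.2, 52.3, 116 and 224, with differences of 1.41 and 2.08 in the tumor effects and 0.94 in the exercise effect with tumor. The 14 monocyte and macrophage markers summed to 14731, 16098, 18468 and 28321, and none was at 0. Of these, 4 were higher and 2 lower for tumor without exercise, 5 higher and 4 lower for exercise with tumor, and 8 higher and 1 lower for tumor with exercise. Shares of all rows, higher and lower, were 20.6% and 25.7%, 24.3% and 17.7%, and 14.9% and 13.0% in these comparisons. The markers C1qa, C1qb, C1qc and Marco were the 4 lower for exercise with tumor, while Chil3 gave 1296, 1796, 1339 and 9856. Their part in these values was not tested.

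**Figure D3:**
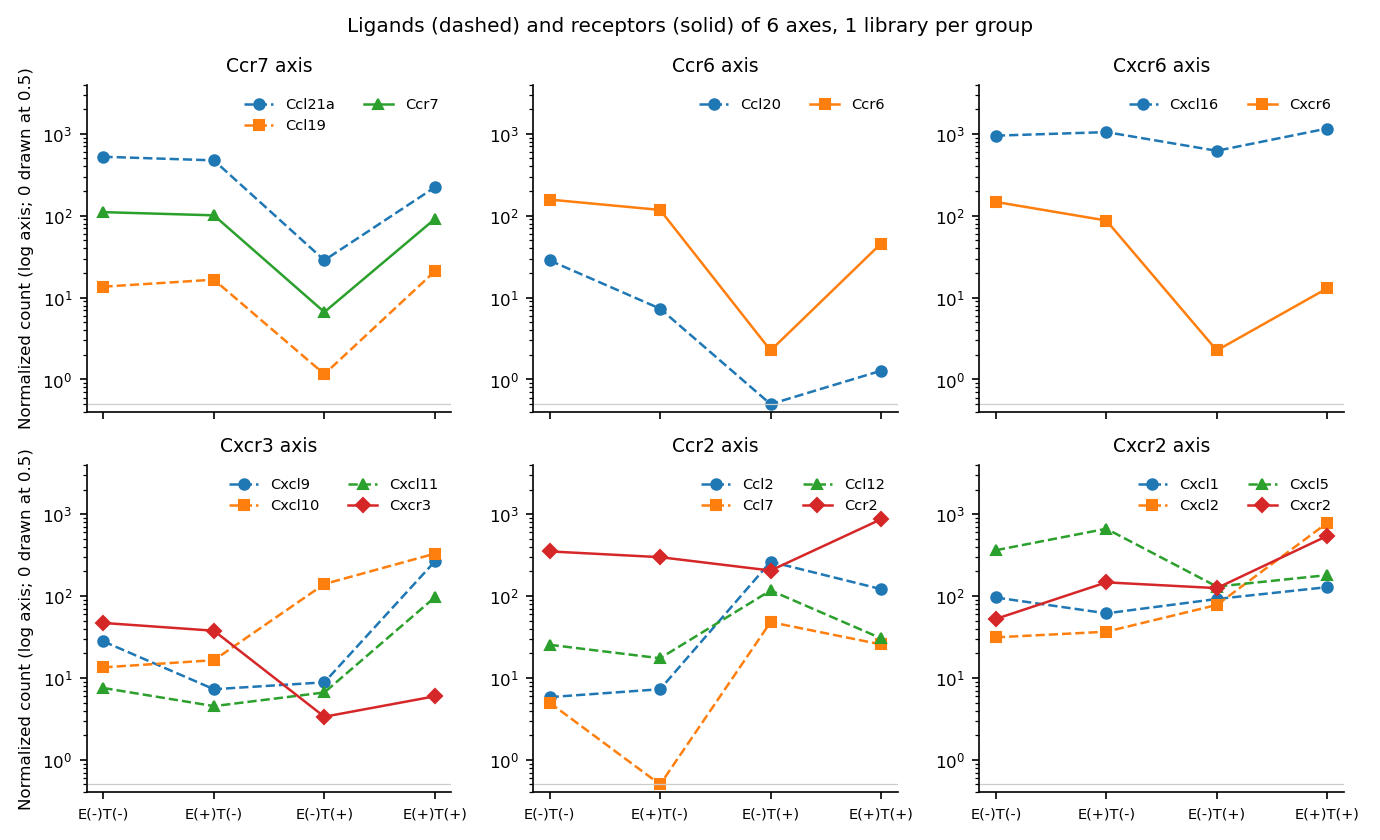
Normalized counts on a log axis for ligands (dashed) and receptors (solid) of 6 axes in the 4 libraries, with 1 point per library and values of 0 drawn at 0.5. Lines only guide the eye. Ccl21a, Ccl19 and Ccr7 dip together in E(-)T(+), Ccl2 and Ccr2 diverge, and Cxcr3 is low in the libraries where its ligand Cxcl10 is high.

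The lymphoid homing group was low in E(-)T(+). Of its 9 filtered members 7 were lower past the limit in the tumor effect without exercise (25.7% of all rows) and 7 were higher in the exercise effect with tumor (24.3% of all rows). By library totals alone 5 of the 9 were higher for exercise with tumor (16.4% of all rows), without Cxcl12 and Ccl21c, and the interval of Ccl21c, with 7 against 15 reads, included 0 (-0.19 to 2.73). Ccr7, by which T cells and dendritic cells reach lymph nodes, gave 111, 101, 6.65 and 91.2, and its ligand Ccl21a gave 524, 474, 28.6 and 222. In the tumor effect without exercise Ccr7 differed by -3.86 and Ccl21a by -4.15, and in the exercise effect with tumor by 3.59 and 2.92.

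Ccl21b had 172, 126, 3 and 42 reads, a log2 difference of -5.08 (interval -7.77 to -3.90) and then of 3.52 (2.26 to 6.24). Ccl19, the other ligand of Ccr7, had 16, 18, 1 and 18 reads, with a difference of -2.75 (-9.02 to -0.95) in the tumor effect without exercise and 3.34 (1.60 to 9.64) in the exercise effect with tumor. Reads among Ccl21a, Ccl21b and Ccl21c are uncertain, because 54.3% of the 75-base windows of the Ccl21b transcript are also found in Ccl21a.

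Cxcl12, which stromal cells and endothelium make, was abundant at 2909, 3063, 505 and 1536. Its receptor Cxcr4 was at 353, 439, 110 and 464, and its atypical receptor Ackr3 at 436, 392, 260 and 1472. Ligand and both receptors were higher with exercise in tumor-bearing lung, by 1.60, 2.07 and 2.50. Ackr3 in E(+)T(+) was also above the tumor-free libraries, by 1.91 over E(+)T(-), while Cxcl12 stayed below, at -0.99. By library totals alone Cxcl12 was at 0.99 and -1.41 in these 2 comparisons.

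Cxcl13, the ligand that draws B cells into follicles, moved unlike the rest of the group. It gave 95.9, 45.0, 526 and 747 and was higher with tumor by 2.44 without and 4.02 with exercise. Its receptor Cxcr5 gave 74.7, 125, 46.1 and 53.8. It differed by -0.69 for tumor without exercise, within the limit, and was lower by -1.20 for tumor with exercise. B cell markers summed to 1181, 1082, 35.7 and 350. All 9 past the filter were lower in the tumor effect without exercise (25.7% of all rows), with Blk, Cd79a and Ms4a1 among those at 0 reads in E(-)T(+). Pax5 was at 0 reads there too, but also in E(-)T(-) and E(+)T(+). The part of the B cell markers in the Cxcr5 and Ccr7 values was not tested.

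Among members of mucosal and skin homing, the receptors Ccr6 and Cxcr6 were nearly absent from E(-)T(+). Ccr6, found on B cells and on T cells that make interleukin 17, had 185, 128, 2 and 39 reads. Cxcr6, found on tissue-resident T cells, had 173, 95, 2 and 11 reads. The tumor effects without exercise were -5.60 for Ccr6 (interval -9.22 to -4.29) and -5.51 for Cxcr6 (-9.12 to -4.19), the 2 largest of any member in that comparison. With exercise Ccr6 differed by 3.84 (2.43 to 7.47) and Cxcr6 by 2.10 (0.36 to 5.77) between the tumor-bearing libraries, and each remained below E(+)T(-), by -1.34 and -2.66.

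Their ligands differed from each other. Cxcl16, which macrophages and epithelium make in a membrane-bound form for Cxcr6, gave 949, 1049, 620 and 1161 and stayed within the limit in every comparison. Ccl20, the ligand of Ccr6, had 33, 8, 0 and 1 reads. It was at least 8.53-fold lower in E(-)T(+) than in E(-)T(-) against the 3-read bound, and 8 reads in E(+)T(-) gave a difference of -1.82 (interval -3.26 to -0.79) from E(-)T(-). The 0 and 1 reads of the tumor-bearing libraries could not be told apart at this depth, and their difference of 1.12 was 0.38 when 4 was the pseudocount and 0.92 by library totals alone.

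Ccl27a, a ligand of skin-homing T cells, gave 402, 612, 56.0 and 450, and Ccl27b had 26, 25, 1 and 21 reads. Each was low in E(-)T(+), with -3.42 (interval -9.69 to -1.73) and then 3.56 (1.85 to 9.86) for Ccl27b, but 51.6% of the 75-base windows of Ccl27b are found in Ccl27a, so that their division is uncertain. Cxcl14, made by epithelium and fibroblasts, gave 561, 422, 382 and 928 and was higher by 1.28 in the exercise effect with tumor, or 0.67 by library totals alone. Cxcl17, a mucosal ligand, gave 286, 285, 532 and 739.

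Ccl25, the ligand of Ccr9, was among the few members highest in E(-)T(+), with 10, 16, 34 and 6 reads and a difference of -2.23 (interval -3.95 to -1.14) in the exercise effect with tumor. Ccr9 had 25, 56, 6 and 20 reads, so it was lowest where Ccl25 was highest. Ccl28 with 1, 0, 7 and 0 reads and its receptor Ccr10 with 0, 1, 2 and 7 reads did not pass the filter.

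In the group linked with type 2 responses and regulatory T cells, Ccl17 had its lowest value in E(-)T(+). Ccr3, an eosinophil receptor, had 4, 33, 0 and 4 reads, with a difference of 2.87 (interval 1.67 to 5.11) for exercise without tumor and -2.45 (-4.65 to -1.21) for tumor with exercise. It passes the filter only through E(+)T(-). Its ligands differed, with Ccl11 at 13, 21, 13 and 7 reads and Ccl24 at 39.0, 21.1, 94.2 and 102 normalized counts. Ccl17, which dendritic cells release for Ccr4, gave 66.2, 157, 12.1 and 64.3 and was past the limit in all 4 comparisons, at 1.24, -2.36, 2.32 and -1.28. Ccl22, its neighbor at chr8:94745590-94812036, had 11, 13, 0 and 2 reads. Ccr4 with 6, 2, 0 and 0 reads and Ccl1 with 0, 0, 1 and 8 reads did not pass the filter.

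Most dendritic cell markers were also low in E(-)T(+). Of the 9 listed markers 5 were lower and 2 higher for tumor without exercise (median difference -1.58), beside 25.7% and 20.6% of all rows. For exercise with tumor 5 were higher and 1 lower (median 1.63), beside 24.3% and 17.7% of all rows. Cd209a was at 0 reads in E(-)T(+). The sum of the listed markers, 1319, 1030, 2766 and 1413, was carried in E(-)T(+) by Fscn1, which gave 262, 377, 2318 and 653. Their part in the Ccl17, Ccr7 and Xcr1 values was not tested.

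Fractalkine, Cx3cl1, is held on the surface of endothelium and gave 410, 218, 143 and 247. Its receptor Cx3cr1, found on patrolling monocytes, gave 218, 154, 298 and 201. It stayed within the limit by the deposited values, while library totals alone put exercise with tumor at -1.17. Xcl1, released by natural killer cells and T cells, had 40, 32, 6 and 6 reads, and Xcr1, which marks cross-presenting dendritic cells, had 46, 57, 5 and 21. Xcr1 differed by 1.97 in the exercise effect with tumor and Xcl1, with 6 reads in each of these libraries, by 0.09.

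The atypical receptors did not share a common pattern over all 4 comparisons. For exercise with tumor 3 of the 4 were higher past the limit (24.3% of all rows), with Ackr1 at 1.63. Ackr1, carried by red cells and venules, had 2, 12, 31 and 92 reads, with differences of 2.21 (interval 0.53 to 5.90) in the exercise effect without tumor and 3.76 (2.35 to 7.43) in the tumor effect without exercise. Ackr2, a scavenger of inflammatory CC ligands on lymphatic endothelium, gave 405, 459, 103 and 625. Ackr3, described with Cxcl12 above, was like Ackr2 lowest in E(-)T(+) and highest in E(+)T(+). Ackr4, which removes Ccl19, Ccl21 and Ccl25, gave 155, 151, 7.75 and 15.3 and was low in E(+)T(+) too, with -4.15 for tumor without exercise, 0.90 (interval -0.44 to 2.55) for exercise with tumor and -3.22 for tumor with exercise.

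Endothelial and alveolar markers moved with some of the stromal and epithelial members and not with others. The 8 endothelial markers summed to 20436, 20772, 2377 and 18078 and the 10 alveolar markers to 247638, 294784, 34907 and 193578. All of them were lower past the limit in the tumor effect without exercise (25.7% of all rows) and higher in the exercise effect with tumor (24.3% of all rows). Cxcl12, Cxcl15, Ackr2 and Ccl21a went the same way. Cxcl5 and Cx3cl1 were lower past the limit but then within it (0.46 and 0.79), Cxcl14 and Cxcl16 were within it for tumor without exercise (-0.55 and -0.61), and Ackr1 was higher. No marker of either list was at 0 in any library, and their part in those values was not tested. The 10 cell division genes, which were highest in E(-)T(+), summed to 481, 911, 11710 and 3809, and the 8 fibroblast markers to 10776, 10393, 36831 and 15065. Of the fibroblast markers 4 were higher and 2 lower for tumor without exercise, beside 20.6% and 25.7% of all rows. Col1a2 was at 2622, 2538, 17953 and 3431 and Tcf21 at 684, 469, 24.2 and 278.

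**Figure D4:**
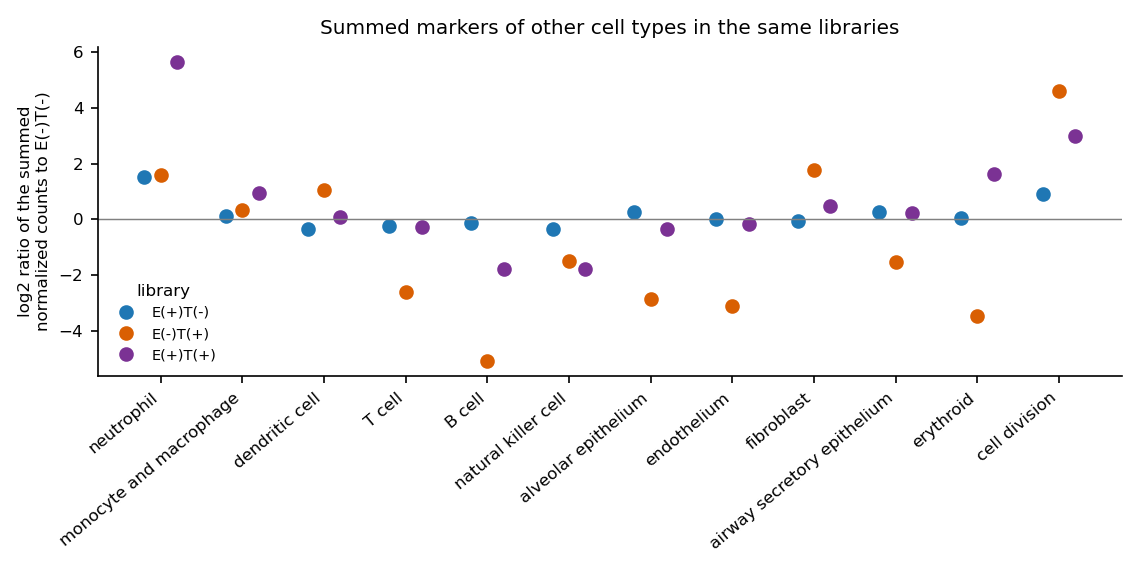
Summed normalized counts of 12 marker lists relative to E(-)T(-), as log2 ratios, with 1 point per library. In E(-)T(+) the T cell, B cell, alveolar, endothelial and erythroid lists lie below 0 and the cell division list above, and in E(+)T(+) the neutrophil list lies highest.

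**Figure D5:**
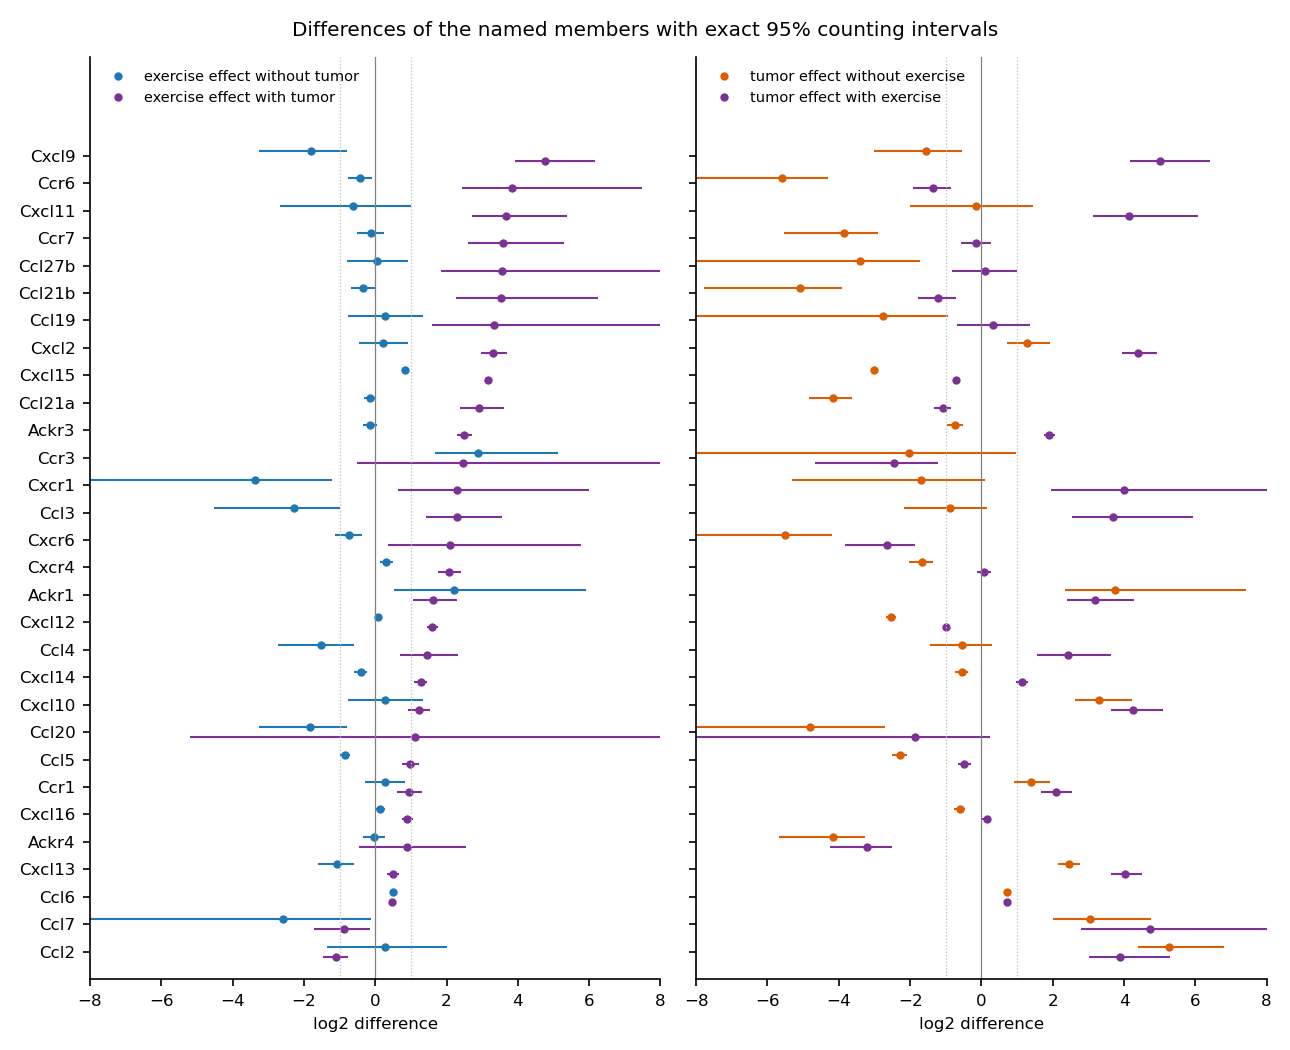
Log2 differences (points) of the named members reported here with exact 95% counting intervals of the read ratio (lines, ended at the plot edge of 8), for both exercise effects on the left and both tumor effects on the right. Dotted lines mark the 2-fold limit. Most purple intervals of the left panel lie right of 0, and those of Ccl2 and Ccl7 lie left.

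Neighbors in the genome had a common pattern in some groups and not in others. All 5 members at chr4:41769467-42773993, Ccl27a, Ccl21b, Ccl27b, Ccl19 and Ccl21a, were lower in the tumor effect without exercise (25.7% of all rows) and higher in the exercise effect with tumor (24.3% of all rows). Several of them share sequence, and the comparisons share the E(-)T(+) library. Of the 6 receptors at chr9:123678439-124113557, which are Ccr9, Cxcr6, Xcr1, Ccr1, Ccr3 and Ccr2, 4 were lower and 1 was higher in the tumor effect without exercise, beside 25.7% and 20.6% of all rows. The lower ones include Ccr3 with 4 against 0 reads, where the 3-read bound is 1.03-fold, the interval includes 0 and a pseudocount of 4 gives -0.85. Positions are those of GENCODE M21 on mm10.

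Genes of the same pathway that the symbol rule leaves out were taken from a list. Of 8 filtered chemokine family genes outside the rule, 4 were higher and 1 lower in the exercise effect with tumor, beside 24.3% and 17.7% of all rows, and 3 were higher and 4 lower for tumor without exercise, beside 20.6% and 25.7%. Pf4 and Ppbp, the chemokines of platelet granules, gave 1040, 1563, 4665 and 13643, and 733, 1292, 552 and 5590. Ccrl2, a receptor-like protein that holds chemerin, gave 325, 308, 142 and 1460.

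Of 38 genes that carry the signal of chemokine receptors inside the cell, 18 were higher and 2 lower in the exercise effect with tumor (24.3% and 17.7% of all rows), with a median difference of 0.97. For tumor without exercise 4 were higher and 9 lower, neither count above the 20.6% and 25.7% of all rows, with a median of -0.36. Rac2, a small GTPase of leukocytes, gave 737, 750, 400 and 2475, and Arrb1, an arrestin that uncouples receptors, gave 2044, 1739, 265 and 1193. Rgs1, which shortens G protein signals, gave 45.8, 21.1, 189 and 286. Rac2 and Arrb1 were thus lowest in E(-)T(+), whereas Rgs1 was low in the tumor-free libraries.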

How the data were processed

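Lung RNA was measured in 4 libraries built from the 3' ends of polyadenylated transcripts. The authors aligned reads with Bowtie2, counted them with bedtools and adjusted counts by the quantile method of edgeR, and the submitters' notes name mm10. Versions, annotation and use of strand are not given in the sources used here. The deposited values are log2(normalized count + 1) at 3 decimals. Relative library sizes and a dispersion were first fitted to 12 low patterns and then refitted to rows of low read count, which gave a dispersion of 0.372. Whole reads were recovered that gave 100% of values within 0.0011 and 99.7% at all 3 decimals. A single read was resolved for 94.6% of values. The procedure was run on reads simulated under the same model of the adjustment, which cannot show whether that model is the authors' step. Comparisons were differences of log2 values among rows with a mean normalized count of at least 4. Intervals are exact Clopper-Pearson at 95%, and bounds use 3 reads. Floors and intervals cover counting error only. Members, lists and rules were chosen with earlier results of these data known. Named members were the 8 largest differences in each comparison, members with a mean of at least 500, the receptors of such ligands, and members with opposite exercise differences, 31 in all. Values of 1 member and of 1 marker gene are not reported here. The others are given in groups. Alternatives were library totals alone, totals without hemoglobin genes, median-of-ratios factors, pseudocounts of 0.5 and 4, no filter, a minimum of 20, a 4-fold limit, the interval, and, chosen after seeing the data, plain division by library size. Analyses used Python 3.11.15 with numpy 2.4.6, scipy 1.17.1 and pandas 2.3.3.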

Additional observations from a re-analysis of the deposited data

Results flagged for a closer look

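By the deposited values the exercise effect was past 2-fold in opposite directions without and with tumor in 5 of 54 members (9.26%) and in 3.15% of all 15164 filtered rows. Among the 5, Ccl20 does not hold at this depth: its exercise effect with tumor rests on 0 and 1 reads and was 0.38 when 4 was the pseudocount and 0.92 by library totals alone. That of Ccl4 was 0.85 by library totals alone. With 1 library per group the difference between the effects was not tested. The exercise effect with tumor minus that without was 6.56 on the log2 scale for Cxcl9, 5.68 for Cxcr1, 4.57 for Ccl3, 2.96 for Ccl4 and 2.94 for Ccl20. The values of Cxcr1 and Ccl20 depend on the pseudocount, since Cxcr1 had 0 reads in E(+)T(-) and Ccl20 in E(-)T(+). Opposite tumor effects past the limit were seen in 2 of 54 members (3.70%), near the 2.94% of all rows. Cxcl9 had such tumor effects without and with exercise, at -1.56 and 5.0. For Cxcr1 the deposited values differ in the same way, but it had 0 to 13 reads per library, the 3-read bounds are -1.76 for exercise without tumor and 2.46 for tumor with exercise, the interval of its tumor effect without exercise (-5.31 to 0.10) includes 0, and Cxcr1 and Ccl20 pass the filter only through their highest library.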

How the results depend on the processing

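No paired analysis was possible because each group has 1 library, and for the same reason no replicate could be left out. At a 4-fold limit in place of 2-fold, 2 members were higher and 3 lower for exercise without tumor (1.44% and 1.21% of all rows), 8 were higher for tumor without exercise (8.65%), 21 were higher and 1 lower for exercise with tumor (11.1% and 5.32%), and 4 were lower for tumor with exercise (3.11%). With a minimum mean of 20, 5 of 44 members were lower in the exercise effect without tumor (1.99% of all rows). By library totals alone 7 members were lower in the exercise effect with tumor, the median of all rows was -0.59 there and -0.41 in the tumor effect with exercise, and the members' median in the latter went from 0.16 to -0.25. The members' median in the tumor effect without exercise was -0.77 with no filter, -0.76 with a minimum of 20 and -0.81 with a pseudocount of 4. The remaining counts stayed within 1.5 times, and none of the 31 named members reversed a difference past the limit under the scalings and pseudocounts. The cause of these shifts was not tested, except that a 4-fold limit and a stricter filter leave fewer members by construction. Depth limits members under about 10 reads, and the interval of the read ratio included 0 for 2, 4 and 2 of the members past the limit in the tumor effect without exercise, the exercise effect with tumor and the tumor effect with exercise.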
